A study of Columba livia with 9 samples.

Results

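GeneID:102083478, G36257, G14881 and G16038 are 4 long noncoding RNAs (lncRNAs) of the pigeon bursa of Fabricius (BF) that the study picked for a qPCR assay. They are 4 of the 19129 lncRNAs whose abundance was listed, and all of them were measured in each of the 9 libraries. The study described the pick as random among the lncRNAs it had found differentially expressed (DE) between age stages in these same libraries. How the 4 lncRNAs moved between the stages was thus part of the choice, so their stage differences are given as a description, without a p-value for any of them. Counts of how many passed a threshold are given only beside the share of all lncRNAs, and nothing is read from them. GeneID:102083478 carries an NCBI gene ID, whereas the numbers beginning with G come from the assembly of the authors.

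RNA was sequenced from the BFs of 9 female squabs of the White King pigeon (Columba livia), with 3 squabs at 1 day (1D), 3 at 13 days (13D) and 3 at 26 days (26D) of age. All squabs shared strain and sex, no treatment was given, and each library came from another squab. Abundance is given in TPM, a share of all transcripts in a library that is scaled to transcript length, so levels may be set side by side between lncRNAs. Each library is a mixture of all cells of the organ, in which fewer cells of a type and less RNA per cell cannot be told apart.

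The BF is the organ in which birds expand their B lymphocytes and diversify the antibody genes of those cells. Its lymphoid follicles lie in folds of mucosa below an epithelium, held by connective tissue and surrounded by smooth muscle, and they fill and grow after hatching. lncRNAs are transcripts without a long protein-coding reading frame. Some lncRNAs act on genes next to them on the chromosome (in cis), others act elsewhere, and many have no known role. No role is assigned here to any of the 4 lncRNAs.

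No transcript sequence of these lncRNAs was read here, only the qPCR primers in the study's supplementary primer list. They are shown because they tie each lncRNA number to an actual sequence that can be searched for. Each is printed 5′ to 3′, the forward primer before the reverse primer, with the last 5 bases at the 3′ end in capitals, where a polymerase starts to extend.
GeneID:102083478 forward: aaaagcacacgagcACCAC
GeneID:102083478 reverse: agcgttcagttcgatTGGCT
G36257 forward: gtcacagcatctgcgTTTGG
G36257 reverse: ctcaagagttccaccACGCT
G14881 forward: tagcggggtccagacACTTA
G14881 reverse: ggttctccatccaagGGCAA
G16038 forward: aggctcgggaaaaccCATTT
G16038 reverse: aagccaagactgcgaACTGA
The primers were 19 or 20 bases long, and G and C made up between 50% and 55% of their bases. The forward primers of G14881 and G16038 each had 1 G or C among the last 5 bases, and the other primers had 2 or 3.

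GeneID:102083478 was the most abundant of the 4 lncRNAs in the elder squabs. It had 3.11, 1.45 and 2.47 TPM in the 1D libraries, 9.55, 11.4 and 3.36 TPM in the 13D libraries, and 2.92, 7.51 and 3.11 TPM in the 26D libraries. All 13D libraries were above all 1D libraries, while the lowest 26D library fell within the 1D range and only 26D replicate 2 was far above it. The mean was 8.10 ± 4.21 TPM at 13D, against 2.34 ± 0.835 TPM at 1D (SD, n = 3 each), a ratio of 3.46. At 26D the mean was 4.51 ± 2.59 TPM (SD, n = 3), and the ratio to the 1D mean was 1.93. Replicates 1 and 2 of 13D held the 2 highest values of the 9 libraries, and 13D replicate 3 stood close to the highest 1D library.

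G36257 was the lncRNA with the widest spread between squabs of an age. Its level was 6.53, 2.22 and 1.18 TPM in the 1D libraries, 3.06, 1.03 and 0.489 TPM in the 13D libraries, and 0.203, 0.615 and 0.551 TPM in the 26D libraries. The 26D libraries lay below every 1D library, whereas the 13D libraries overlapped those of both other stages. Means were 0.456 ± 0.221 TPM at 26D and 3.31 ± 2.84 TPM at 1D (SD, n = 3 each). The 13D mean was 1.53 ± 1.36 TPM (SD, n = 3). 1D replicate 1 alone held the highest value by a wide margin, 5.53 times that of 1D replicate 3.

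G14881 was the lncRNA with the tightest replicates in deposited TPM, while G16038 was tighter after median-of-ratios scaling. Its level was 4.59, 3.22 and 4.12 TPM at 1D, 1.75, 1.97 and 1.02 TPM at 13D, and 0.629, 0.824 and 0.745 TPM at 26D. The 3 stages did not overlap in TPM, and each later stage lay below the one before it. Averages were 3.98 ± 0.695 TPM for the 1D squabs, 1.58 ± 0.496 TPM for the 13D squabs and 0.733 ± 0.0978 TPM for the 26D squabs (SD, n = 3 each). The 1D mean was thus 2.52 times the 13D mean and 5.43 times the 26D mean.

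G16038 followed the same order of stages at a lower level. It had 1.70, 1.21 and 1.74 TPM at 1D, 0.795, 0.819 and 0.400 TPM at 13D, and 0.162, 0.407 and 0.464 TPM at 26D. Both elder stages lay below all 1D libraries, and 13D and 26D overlapped because 13D replicate 3 was at the level of 26D replicates 2 and 3. It averaged 1.55 ± 0.293 TPM in 1D libraries, 0.671 ± 0.235 TPM in 13D libraries and 0.344 ± 0.160 TPM in 26D libraries (SD, n = 3 each). All 4 lncRNAs were above 0.1 TPM, the threshold at which the authors listed a lncRNA, in all 9 libraries.

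**Figure D1:**
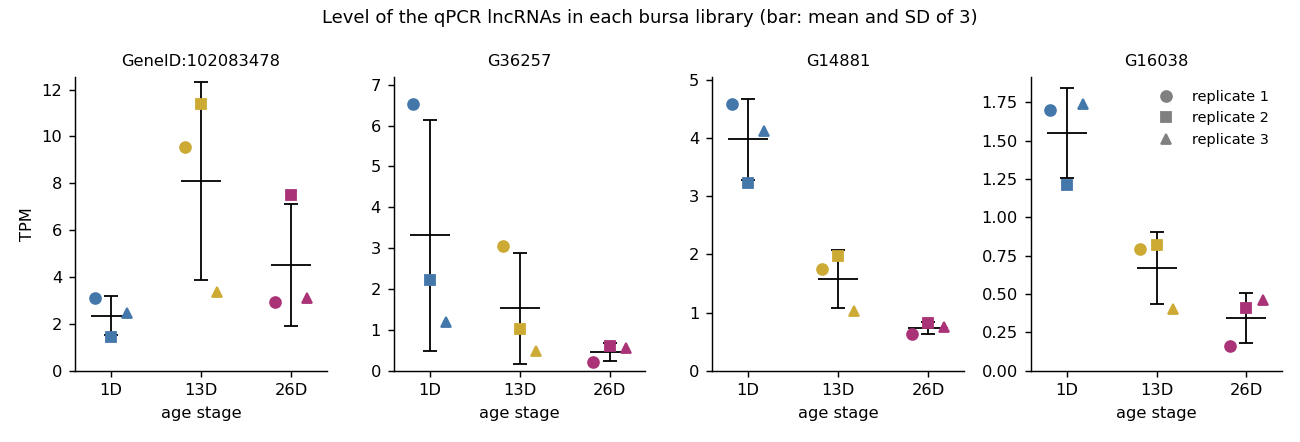
TPM of each of the 4 lncRNAs (vertical axis from 0, a separate scale per panel) in the 3 libraries of 1D, 13D and 26D (horizontal axis), with marker shape for the replicate number and a bar for the mean and SD of 3 libraries. GeneID:102083478 averaged 2.34 TPM at 1D, 8.10 at 13D and 4.51 at 26D, while the points of G14881 step down from stage to stage without overlap.

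Since all RNAs of a library share its scaling, ratios between the 4 lncRNAs within a library do not depend on that scaling. GeneID:102083478 over G14881 ranged from 3.29 to 5.79 at 13D and from 4.17 to 9.11 at 26D, against 0.451 to 0.677 at 1D. The ranking of the 4 lncRNAs within a library turned between 1D and the elder stages. GeneID:102083478 ranked highest in 3 of the 3 13D libraries and 3 of the 3 26D libraries, and in none at 1D, where G14881 was highest in 2 libraries and G36257 in 1. G16038 ranked lowest in 8 of the 9 libraries, and G36257 ranked lowest in the remaining one, 1D replicate 3. In contrast, G14881 over G16038 averaged 2.58 ± 0.179 at 1D, 2.39 ± 0.175 at 13D and 2.5 ± 1.21 at 26D (SD, n = 3 each). At 13D both lncRNAs were thus lower than at 1D by a similar factor. The 26D mean was close to the others, but the ratio ranged from 1.61 to 3.88 between the 26D libraries. G36257 over G14881 was less even and ranged from 0.287 to 1.75 over the 9 libraries.

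Set among all listed lncRNAs of the same library, GeneID:102083478 was at the 66.9th to 70.6th percentile at 1D, the 83.1st to 90.3rd at 13D and the 80.6th to 90.8th at 26D. G14881 was at the 77.7th to 82.5th percentile at 1D, the 58.8th to 62.0th at 13D and the 52.6th to 69.4th at 26D. G36257 lay between the 46.2nd percentile (26D replicate 3) and the 84.9th percentile (1D replicate 1). G16038 was at the 56.2nd percentile or higher in the 1D libraries and at the 44.1st or lower in the 6 others. The median level over the 9 libraries ranged from 0.715 times the median lncRNA for G16038 to 6.0 times for GeneID:102083478.

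The libraries differed among themselves by more than age. A median-of-ratios factor, which compares the typical mRNA of a library with that of all libraries, was lowest in 26D replicate 1, at 0.483, and highest in 1D replicate 1, at 1.42. The most abundant lncRNA alone took between 13.9% of the TPM (1D replicate 1) and 39.0% (26D replicate 1). A larger share leaves less TPM for the other RNAs, but what part it had in the factors was not tested. ACTB, which encodes β-actin and was the reference gene of the qPCR assay, had 174 TPM in 26D replicate 1, its lowest level, and its highest level was 1265 TPM in 1D replicate 1. The fold changes of the 4 lncRNAs are therefore given on 3 scales, namely deposited TPM, TPM divided by the median-of-ratios factor, and TPM divided by ACTB of the same library. The median log2 fold change of all lncRNAs on the deposited scale was 0.05 for 13D vs. 1D, -0.65 for 26D vs. 1D and -0.72 for 26D vs. 13D. Median-of-ratios scaling brought these medians to -0.03, -0.27 and -0.25, so most of the shift at 26D went with the library factors.

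The comparison of 13D vs. 1D asked which transcripts had changed over the first days after hatching. The log2 fold change from limma on log2(TPM + 0.1) was 1.64 (SE 0.58) for GeneID:102083478, at the 97.7th percentile of all lncRNAs. It was -1.31 (SE 0.48) for G14881, -1.13 (SE 0.53) for G16038 and -1.08 (SE 0.80) for G36257, at the 7.16th, 9.66th and 10.5th percentile. On the pseudocount scale these values understate the change of low transcripts. Dividing by the median-of-ratios factor gave 1.54 (SE 0.33) for GeneID:102083478, -1.40 (SE 0.25) for G14881, -1.21 (SE 0.31) for G16038 and -1.17 (SE 0.67) for G36257. Per ACTB, the values were 1.33, -1.60, -1.40 and -1.37 in that order. The signs were the same on the 3 scales, and the standard errors of all 4 were smaller after either scaling. G36257 depended on single squabs, as its value was -0.43 without 1D replicate 1 and -1.73 without 13D replicate 1.

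In TPM, the 13D libraries of GeneID:102083478 were all higher than the 1D libraries, as were those of 5.58% of all lncRNAs. The 13D libraries of G14881 and G16038 were all lower, as were those of 8.2% of all lncRNAs. G36257 overlapped, but was lower without overlap when 13D replicate 1 was left out, as were 13.6% of all lncRNAs. None of the 4 was called DE by limma with Benjamini-Hochberg adjustment, where the share called among all 19129 lncRNAs was 0%. At an unadjusted p under 0.05 were 1994 lncRNAs (10.4%), 2 of the 4 among them. With a filter on lncRNAs above 0.1 TPM in at least 3 libraries, limma called 0.696% of lncRNAs and again none of the 4.

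**Figure D2:**
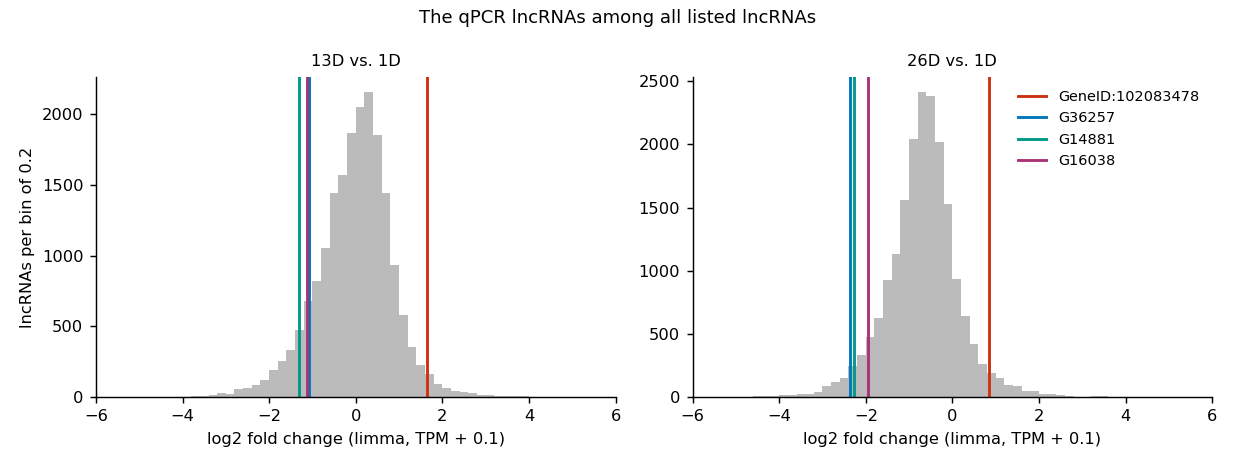
Histograms of the log2 fold change of all 19129 lncRNAs (horizontal axis, limma on log2(TPM + 0.1), bins of 0.2; vertical axis, number of lncRNAs per bin) at 13D (left) and 26D (right) against 1D, with a line at each of the 4 lncRNAs. In 26D vs. 1D the whole histogram is centred at -0.65, and the lines of G36257, G14881 and G16038 stand at -2.38, -2.28 and -1.95.

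For 26D vs. 1D, the 3 lncRNAs with negative values at 13D had larger ones on the deposited scale. The log2 fold change was -2.38 (SE 0.75) for G36257, -2.28 (SE 0.59) for G14881 and -1.95 (SE 0.65) for G16038. These values lay at the 2.64th, 3.20th and 6.02nd percentile of all lncRNAs. Scaled by the median-of-ratios factor they were -1.94 (SE 0.55), -1.79 (SE 0.36) and -1.54 (SE 0.39), and per ACTB they were -1.90, -1.73 and -1.50. Scaling also raised the value of GeneID:102083478, which was positive on each scale. It was 0.84 (SE 0.64) on the deposited scale, 1.37 (SE 0.40) after median-of-ratios scaling and 1.42 (SE 0.58) per ACTB. Its percentile among all lncRNAs was nearly the same on these scales, 96.6 in deposited TPM and 97.3 on both others.

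G36257, G14881 and G16038 were lower in every 26D library than in every 1D library, as were 21.3% of all lncRNAs. They did not overlap after median-of-ratios scaling or per ACTB either, where 17.6% and 18% of all lncRNAs were lower without overlap. Per 1000 TPM of ACTB, G14881 was separated only narrowly, with 3.607 in the highest 26D library against 3.626 in the lowest 1D library. GeneID:102083478 overlapped in TPM and per ACTB and did not overlap after median-of-ratios scaling (3.28 to 7.87 at 26D, against 1.75 to 2.18 at 1D), where 4.71% of all lncRNAs were higher without overlap. The overlap of GeneID:102083478 per 1000 TPM of ACTB was narrow, with 3.641 in the lowest 26D library against 3.647 in the highest 1D library. On the deposited scale, 1.42% of all lncRNAs were higher at 26D without overlap. Without 26D replicate 1, the library with the lowest factor, GeneID:102083478 was also higher without overlap, as were 5.44% of all lncRNAs. The log2 fold changes without that library were 1.08 for GeneID:102083478, -1.99 for G36257, -2.19 for G14881 and -1.61 for G16038. limma called none of the 4, against 0% of all lncRNAs, and 3 of the 4 were among the 3187 lncRNAs (16.7%) at an unadjusted p under 0.05. With the filter the share called was 2.48%, and none of the 4 was called.

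Between 26D and 13D, GeneID:102083478, G14881 and G16038 lay in the middle range of all lncRNAs in TPM, at the 45.2nd, 32.7th and 43.3rd percentile, and G36257 lay lower, at the 12.9th. On the other scales G36257 was at the 13.8th (median-of-ratios) and 15.6th (ACTB) percentile. The log2 fold changes in TPM were -1.30 (SE 0.78) for G36257, -0.97 (SE 0.49) for G14881, -0.82 (SE 0.57) for G16038 and -0.79 (SE 0.64) for GeneID:102083478. The median of all lncRNAs was -0.72 on that scale. Median-of-ratios scaling brought the values to -0.77, -0.39, -0.32 and -0.17, with -0.25 as the median of all lncRNAs. Per ACTB they were -0.53, -0.13, -0.10 and 0.09, so the sign of GeneID:102083478 turned. In TPM, G14881 was lower at 26D without overlap, as were 11.3% of all lncRNAs, but its libraries overlapped after both scalings. The other 3 overlapped, and the share of lncRNAs that were higher without overlap was 0.523%. Leaving out 13D replicate 3, which had the lowest factor at 13D, made all 4 lncRNAs lower without overlap in TPM, as were 52.6% of all lncRNAs. limma called none of the 4, against 0% of all lncRNAs, and of the 1097 lncRNAs (5.73%) at an unadjusted p under 0.05 none was among the 4.

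**Figure D3:**
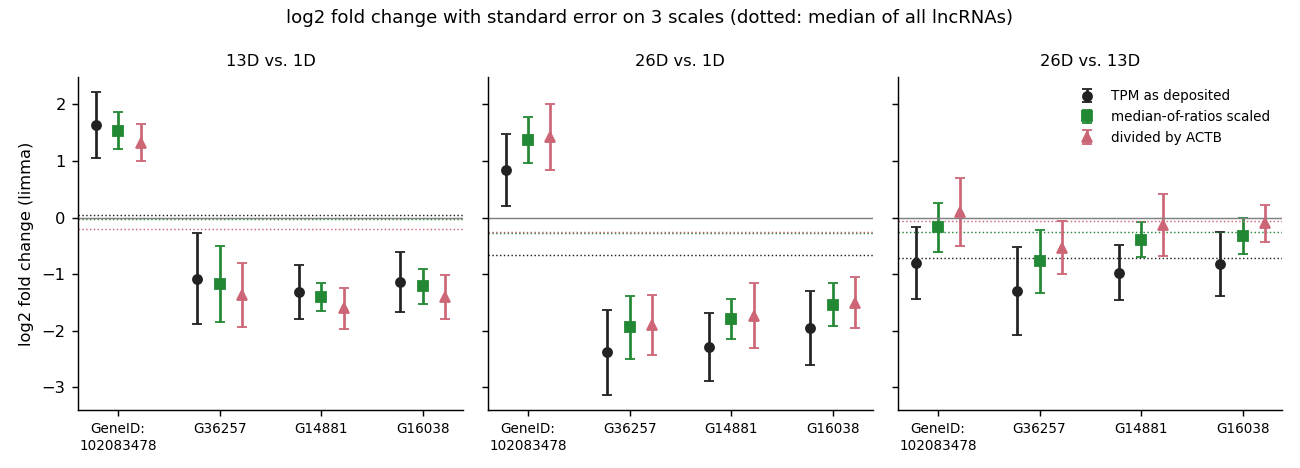
log2 fold change from limma with its standard error (vertical axis) of the 4 lncRNAs (horizontal axis) in one panel per pair of stages, on deposited TPM (black circles), after median-of-ratios scaling (green squares) and per ACTB (red triangles), with dotted lines for the median of all lncRNAs. The signs against 1D are the same on the 3 scales, while in 26D vs. 13D the value of GeneID:102083478 goes from -0.79 in TPM to 0.09 per ACTB.

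The spread between squabs of an age was measured as the SD of log2(TPM + 0.1) within stages, set against lncRNAs of like level. It was 0.324 for G14881, smaller than in all but 0.781% of 2818 lncRNAs, and 0.475 for G16038, at the 5.11th percentile of 3228. GeneID:102083478 had an ordinary spread of 0.757 (46.4th percentile of 2157), and G36257 had a wide one of 1.06 (82.9th percentile of 3073). A lncRNA with a small spread passes a test of DE more readily, so that a low percentile is partly what the choice of DE lncRNAs favours. After median-of-ratios scaling the SD was 0.227 for G14881, 0.188 for G16038, 0.494 for GeneID:102083478 and 0.829 for G36257. The percentiles of G14881 and G16038 were then 1.25 and 0.219.

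Part of that spread was shared with the library as a whole. Deviations from the stage means correlated with those of the library factor over the 9 libraries, with Pearson's r of 0.957 for G16038, 0.840 for G14881, 0.782 for GeneID:102083478 and 0.695 for G36257. After scaling, r with the factor was 0.497 for G16038, 0.432 for G36257, 0.296 for GeneID:102083478 and -0.666 for G14881. Between the 4 lncRNAs, deviations in TPM correlated with r from 0.585 to 0.926 for the 6 possible pairs. After scaling the same correlations ranged from -0.312 to 0.371. These points share their library scaling, and the values are descriptions over 9 libraries.

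The study listed mRNAs as cis targets of a lncRNA when both were DE, lay near each other on the genome and were correlated in these libraries. Among the 267 pairs listed were G14881 with MEIS1 and G16038 with PLOD2, and both of these mRNAs were also in the qPCR assay. Since high correlation and DE were conditions of the list, the values of the pairs below are descriptions. Their correlations were taken on log2 of deposited ("in TPM") or scaled TPM, after adding 0.1 for lncRNAs and 0.5 for mRNAs. No value here bears on whether a lncRNA acts on its neighbour.

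MEIS1 encodes a homeodomain transcription factor known as a cofactor of HOX proteins in development and blood stem cells. It had 132, 41.5 and 104 TPM at 1D, 26.1, 40.3 and 18.3 TPM at 13D, and 5.33, 15.6 and 24.0 TPM at 26D. All 1D libraries were above the others, but 13D replicate 2 came within reach of 1D replicate 2. With G14881 its r was 0.916 in TPM and 0.835 after scaling. Within stages the relation depended on the scale, since deviations correlated with r of 0.726 in TPM and of -0.665 after scaling. The positive correlation of this pair over 9 libraries was thus not seen among squabs of an age once the library factors were divided out. Scaled deviations of G14881 still correlated with those of the library factor, with r of -0.666, so a link to the library remained in them. MEIS1 ranked 159th of the 8787 mRNAs for G14881 in TPM and 316th after scaling. The log2 fold change of MEIS1 was -1.62 (SE 0.41) at 13D and -2.66 (SE 0.46) at 26D, both against 1D, or -1.71 and -2.15 after median-of-ratios scaling.

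PLOD2 encodes a lysyl hydroxylase that prepares collagen for cross-linking. Its level was 82.2, 54.4 and 61.1 TPM at 1D, 26.6, 24.1 and 15.7 TPM at 13D, and 9.09, 16.1 and 33.1 TPM at 26D. Every 1D library exceeded every later one, and 26D replicate 3 stood above the 13D libraries. Its r with G16038 was 0.939 in TPM and 0.889 after scaling, and for deviations from the stage means it was 0.858 in TPM and 0.445 after scaling. It ranked 238th in TPM and 283rd after scaling. The log2 fold change of PLOD2 was -1.56 (SE 0.42) in 13D vs. 1D and -1.90 (SE 0.46) in 26D vs. 1D, or -1.66 and -1.38 after median-of-ratios scaling.

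Against 1D, limma called MEIS1 and PLOD2 lower at 13D and at 26D. Among all 13072 mRNAs, 6.74% were called lower and 1.43% higher at 13D, and 12.6% lower and 0.513% higher at 26D. As the study required DE for a listed partner, these calls are no separate finding. Both mRNAs were far more abundant than their lncRNAs, with a median mRNA to lncRNA ratio over the 9 libraries of 18.9 for MEIS1 and 39.6 for PLOD2. The ratio of MEIS1 to G14881 ranged from 8.47 to 32.2.

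**Figure D4:**
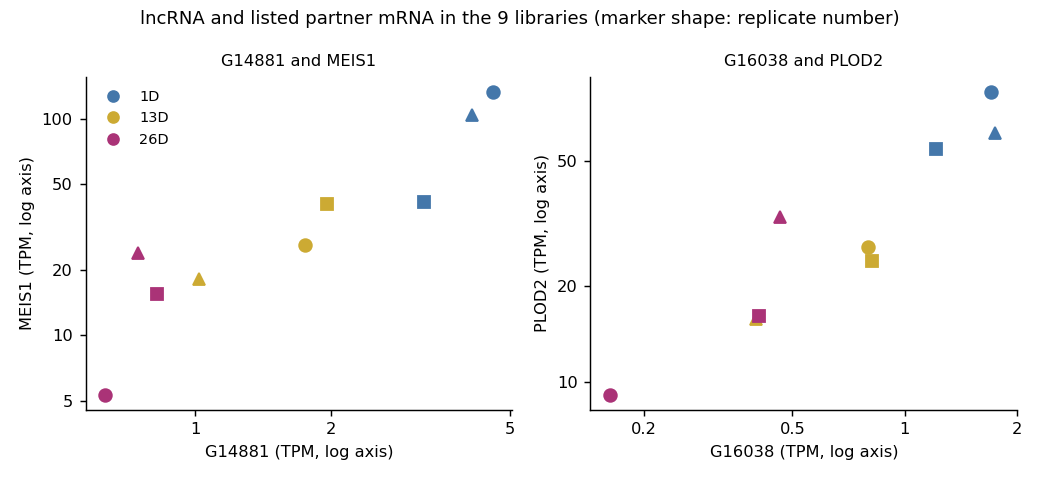
TPM of the listed partner mRNA (vertical axis, log scale) against TPM of the lncRNA (horizontal axis, log scale) in the 9 libraries for G14881 and MEIS1 (left) and G16038 and PLOD2 (right), with colour for the stage and marker shape for the replicate number. All 1D points lie at the upper right of both panels. Deviations of log2 deposited TPM from the stage means were pooled over the 9 libraries. Their r was 0.858 for G16038 and PLOD2 (0.445 after median-of-ratios scaling) and 0.726 for G14881 and MEIS1 (-0.665 after scaling).

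GeneID:102083478 had no listed partner. Its nearest listed mRNAs in the RefSeq table of another pigeon assembly (bColLiv1.pat.W.v2) were LOC102083608 on one side and RAB40B on the other, and neither was chosen by its values. RAB40B encodes a small GTPase of the Rab40 group, known in mammals for recruiting a ubiquitin ligase. RAB40B had 2.11, 2.85 and 1.96 TPM at 13D and 0.511, 2.23 and 2.18 TPM at 26D, against 5.37, 6.88 and 5.60 TPM at 1D. All libraries of both elder stages were thus below all 1D libraries, opposite to GeneID:102083478 at 13D. RAB40B fell by 1.72 on the log2 scale in 26D vs. 1D (SE 0.58, limma, Benjamini-Hochberg adjusted p = 0.0302), and its value in 13D vs. 1D was -1.21 (SE 0.50, limma adjusted p = 0.120).

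The call for RAB40B was not firm. After median-of-ratios scaling, 26D vs. 1D gave a value of -1.35 (limma adjusted p = 0.0649) and 13D vs. 1D one of -1.28 (limma adjusted p = 0.0366), so the call passed from one comparison to the other. In 26D vs. 1D the call was also lost without 1D replicate 1 (limma adjusted p = 0.130), 1D replicate 3 (0.0847), 26D replicate 1 (0.219) or 26D replicate 2 (0.0965). LOC102083608, which has no assigned name, had 5.72 to 14.4 TPM at 26D and 12.1 to 21.3 TPM at 13D, against 13.3 to 21.6 TPM at 1D. Its log2 fold changes were -0.62 (SE 0.53, limma adjusted p = 0.50) at 26D and 0.02 (SE 0.45, limma adjusted p = 0.989) at 13D, both against 1D. After median-of-ratios scaling they were -0.10 (limma adjusted p = 0.801) and -0.07 (limma adjusted p = 0.819). Both genes thus differed in pattern from the lncRNA between them, but a difference between the fold changes of a lncRNA and an mRNA was not tested.

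The mRNAs most like each lncRNA were searched for among 8787 named mRNAs above 0.5 TPM in all libraries, by Pearson's r on median-of-ratios scaled log2 values over the 9 libraries. For G16038 they were COL4A5 (r of 0.989), PLAG1 (0.987) and COL4A6 (0.987). COL4A5 and COL4A6 encode collagen chains of basement membranes, and PLAG1 encodes a zinc finger transcription factor. COL4A5 averaged 16.7 ± 7.84 TPM at 13D and 5.13 ± 2.86 TPM at 26D, against 110 ± 18.2 TPM at 1D (SD, n = 3 each). For G14881 they were TJP3 (0.971), a scaffold protein of tight junctions, the seals between epithelial cells, DUSP14 (0.964), a dual-specificity phosphatase, and KIFC3 (0.962), a motor protein of the kinesin family. TJP3 averaged 2.17 ± 0.574 TPM at 13D and 1.12 ± 0.286 TPM at 26D, against 7.61 ± 1.17 TPM at 1D (SD, n = 3 each).

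For G36257 the most similar mRNAs were MPDZ (0.971), a scaffold protein with many PDZ domains that is found at tight junctions, AMMECR1 (0.946) and PTAR1 (0.943). MPDZ averaged 5.08 ± 3.69 TPM at 13D and 2.09 ± 0.762 TPM at 26D, against 8.53 ± 4.58 TPM at 1D (SD, n = 3 each). For GeneID:102083478 they were NELFA (0.987), a subunit of the complex that pauses RNA polymerase II, TENT4A (0.977), a noncanonical poly(A) polymerase, and IFFO2 (0.975). NELFA averaged 61.9 ± 25.4 TPM at 13D and 36.3 ± 14.2 TPM at 26D, against 33.4 ± 9.79 TPM at 1D (SD, n = 3 each). High r values are common when the best of so many mRNAs are taken over 9 libraries. With deposited TPM instead, none of these remained among the best 3 for GeneID:102083478, and a single one did for each of the others, namely MPDZ, KIFC3 and PLAG1. For deviations of the scaled values from the stage means, r with G14881 was 0.483 for TJP3 and 0.571 for DUSP14. The other mRNAs named here had r from 0.712 (COL4A6 with G16038) to 0.962 (NELFA with GeneID:102083478).

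Marker genes of the cell types of the BF moved with age in the same libraries. Of 20 genes of extracellular matrix and fibroblasts, all of them measured, limma called 16 lower at 13D and 18 at 26D against 1D. The medians of the list were -1.95 and -2.57 on the log2 scale. After median-of-ratios scaling 17 and 13 of these genes were called lower. Of 10 measured smooth muscle genes, 9 were called lower in each comparison (10 and 6 after scaling). Of 12 measured epithelial genes, 4 were called lower at 13D and 9 at 26D (7 and 9 after scaling). The epithelial medians in TPM were -1.13 and -1.74. Among all 13072 mRNAs, limma called 881 lower at 13D and 1642 at 26D, or 1152 and 829 after scaling. In deposited TPM the median of all mRNAs was 0.00 at 13D and -0.52 at 26D, both against 1D. COL3A1, a fibrillar collagen, had 60.6 ± 61.3 TPM at 26D against 821 ± 425 TPM at 1D, and CDH1, the E-cadherin of epithelia, had 5.45 ± 3.39 TPM at 26D against 25.0 ± 9.37 TPM at 1D (SD, n = 3 each).

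G36257, G14881 and G16038 were likewise lower in TPM at 26D than at 1D, and what part the cell types had in the lncRNA values was not tested. In 26D vs. 13D, limma called no gene of the extracellular matrix, smooth muscle and epithelial lists lower, against 1 of all 13072 mRNAs. The summed scaled TPM of the extracellular matrix list was 411 to 506 at 13D and 232 to 676 at 26D, against 1467 to 2331 at 1D. That of the smooth muscle list was 64.9 to 141 at 13D and 57.6 to 238 at 26D, against 477 to 731 at 1D. The epithelial list summed to 225 to 249 at 13D and 232 to 240 at 26D, against 257 to 515 at 1D. The B lineage list, of which 20 of 24 genes were measured and none was at 0 in all libraries, summed to 3014 to 3383 at 13D and 3659 to 4590 at 26D, against 1577 to 2216 at 1D. Of these B lineage genes, limma called 2 higher at 13D and 1 higher at 26D against 1D, and 4 at each age after scaling. Among all 13072 mRNAs it called 187 and 67 higher, or 203 and 171 after scaling. In the scaled sums of the extracellular matrix, smooth muscle, epithelial and B lineage lists, no library of an elder stage overlapped with one of 1D. In deposited TPM the B lineage sums overlapped at 26D, with 2217 to 3909 against 1837 to 2318 at 1D. The deposited epithelial sums overlapped at 13D, with 214 to 345 against 291 to 558 at 1D.

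**Figure D5:**
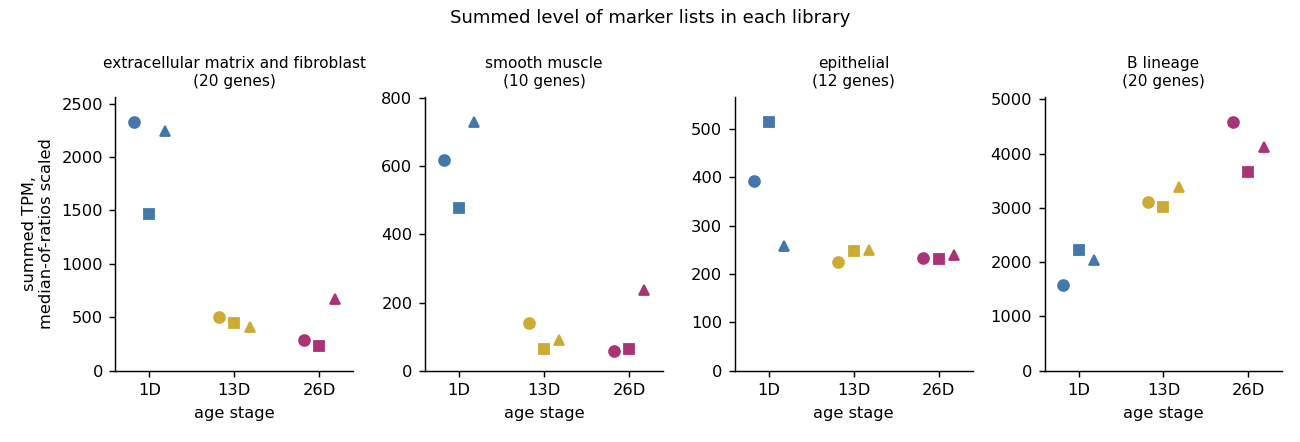
Summed TPM after median-of-ratios scaling (vertical axis from 0, a separate scale per panel) of the measured genes of 4 marker lists in the 3 libraries of 1D, 13D and 26D (horizontal axis), with marker shape for the replicate number. The extracellular matrix list lies at 1467 to 2331 in the 1D libraries and at 232 to 676 in the elder ones, while the B lineage list is at 1577 to 2216 in the 1D libraries and at 3014 or more in the elder ones, and 26D replicate 3 is the elder library with the highest matrix and smooth muscle sums.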

How the data were processed

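BF RNA of 9 female squabs, 3 per age stage, was sequenced after rRNA depletion, with a separate squab for each library. The authors mapped clean reads with STAR 2.6.0c to the genome Cliv_1.0, assembled transcripts with Cufflinks 2.1.1, quantified them with Kallisto and deposited TPM per library, one table for mRNAs and one for lncRNAs, keeping what exceeded a threshold in at least 1 library (mRNAs, 0.5 TPM; lncRNAs, 0.1 TPM). The TPM of a library summed to between 991214 and 997459 over both tables. TPM hold no counts, so the number of reads behind a single value is unknown and no counting interval is given. The study reported mapped reads per library, and the share of reads mapped was lowest in 1D replicate 2. The authors ran edgeR for DE, which needs counts and was therefore not used here.

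limma 3.58.1 in R 4.3.3 (lmFit, eBayes with a trend) was fitted for each pair of stages on the 6 libraries concerned, on log2(TPM + 0.1) for all 19129 lncRNAs and log2(TPM + 0.5) for all 13072 mRNAs. A call needed a log2 fold change above 1 in size, with a p under 0.05 after Benjamini-Hochberg adjustment. For mRNAs against 1D, the error of a single mRNA came mainly from the trend fitted to all of them. The fits were tested on simulated data for the direction of large added changes, which does not show how readily smaller ones are called. Median-of-ratios factors used 10027 mRNAs. Tables were handled with pandas 2.3.3 under Python 3.11.15, and figures drawn with matplotlib 3.10.9.

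The 4 lncRNAs and the marker lists were chosen with earlier results of these data known. Named genes were the 4 lncRNAs, their listed cis partners (or the nearest listed mRNA on each side), the 3 mRNAs most like each, ACTB, ITGA4 and up to 3 called genes of a marker list with the largest change in 26D vs. 1D. Symbols came from RefSeq and paired 12387 mRNAs. One item that this rule names is not reported here. Replicate numbers did not pair the squabs. No read, qPCR value or transcript sequence was analysed here.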

Additional observations from a re-analysis of the deposited data

How the results depend on the processing

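Over the 10 alternatives that can change a fold change, for each of 12 fold changes of the 4 lncRNAs, 112 of 120 values stayed within the SD between replicates, and 1 changed sign. That SD was each lncRNA's own, so the limit was wider for G36257 than for G14881, whose spreads over the 3 stages were 1.06 and 0.324. The limit could differ from the spread over the 3 stages, which was 0.475 for G16038. In 26D vs. 13D, G16038 went from -0.82 in TPM to -0.32 after median-of-ratios scaling. That shift was larger than its spread and was counted as within the limit. All values of G36257 stayed within its limit. They still ranged from -1.73 to -0.43 in 13D vs. 1D and from -1.86 to -0.53 in 26D vs. 13D. The values that moved further were G14881 in 26D vs. 1D (-1.73 per ACTB, -1.79 after median-of-ratios scaling, -1.85 with a pseudocount of 0.5), G16038 in 26D vs. 1D (-1.29 with that pseudocount), and in 26D vs. 13D GeneID:102083478 (0.094 per ACTB), G14881 (-0.13 per ACTB, -0.39 after scaling) and G16038 (-0.10 per ACTB). The number of lncRNAs called with all 9 libraries in 1 fit was 83 at 13D and 284 at 26D against 1D, and 1 at 26D against 13D. Against 1D it was 122 and 435 with the filter, 10 and 6 after median-of-ratios scaling and 2 in 13D vs. 1D without a trend, against 0 as reported, and none of these calls was one of the 4. The count of mRNAs called was 703 in 13D vs. 1D with all 9 libraries (1068 as reported) and 1000 in 26D vs. 1D after scaling (1709 as reported). With one library left out it ranged from 412 to 1518 in 13D vs. 1D and from 571 to 2240 in 26D vs. 1D, and that of lncRNAs was 0 throughout. Without single libraries the fold changes of the 4 kept their signs. The correlation within stages after scaling, added after the data were seen, was -0.66 for G14881 with MEIS1 and 0.45 for G16038 with PLOD2.

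Samples with the same replicate number came from different squabs, so the numbers gave no pairing of animals. Their deviations correlated with r from -0.284 to 0.424, against -0.370 to 0.274 for samples of different numbers. Whether samples of a number shared a batch is not known from these values. With the replicate block, 49 lncRNAs and 481 mRNAs were called in 26D vs. 1D, and RAB40B was not (limma adjusted p = 0.217). TPM carry no counts, so the counting error of lncRNAs near 0.1 TPM is unknown, and with 3 squabs per stage the spread between squabs is known only roughly. The cause of these differences was not tested.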

Other observations

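ITGA4, an integrin chain that lymphocytes use to adhere and to enter tissues, was another mRNA of the qPCR assay, which the study listed beside 1 lncRNA that is none of the 4. It had 47.3, 38.4 and 39.4 TPM at 13D and 28.6, 48.5 and 99.7 TPM at 26D, against 36.6, 21.5 and 16.8 TPM at 1D. All 13D libraries were above all 1D libraries, and 26D replicate 1 fell among the 1D values. Its log2 fold change was 0.80 (SE 0.43) in 13D vs. 1D and 1.11 (SE 0.46) in 26D vs. 1D, neither called by limma, and after median-of-ratios scaling that in 26D vs. 1D was 1.64 and called. The study chose ITGA4 as DE on these libraries, so these values are a description.

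Single genes of other marker lists changed as well. Of the B lineage list, TNFRSF13C, the receptor for the B cell survival factor BAFF, rose by 2.0 on the log2 scale in 26D vs. 1D (SE 0.59, limma adjusted p = 0.0101), with 11.9 ± 3.57 TPM at 26D against 2.63 ± 0.990 TPM at 1D. THEMIS, of the T lineage list (9 of 12 genes measured, 1 called higher, median log2 fold change of -0.02), rose by 2.1 (SE 0.58, limma adjusted p = 0.00567). Of the myeloid list 1 of 10 measured genes was called lower in 26D vs. 1D, and the list median was -0.27 (0.14 after scaling). That gene was LYZ, which fell by 2.1 (SE 0.55, limma adjusted p = 0.00291) but was not called after scaling (limma adjusted p = 0.329). Of the erythroid list 3 of 9 genes were measured and 2 were called lower, HBAD and SLC4A1. Of 17 measured proliferation genes, 2 were called higher in 13D vs. 1D, against 1.43% of all mRNAs, and 1 was called higher after scaling. The median log2 fold change of the list was 0.92 in that comparison, or 0.82 after scaling. In 26D vs. 1D the median was 0.10, or 0.64 after scaling.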
